A study of Mus musculus with 7 samples.

Results

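The genes described here are those of the laminins, the other proteins of the basement membrane and the integrins, 47 of the 55536 genes counted. Members were taken by symbol: the laminin chains (Lama, Lamb and Lamc), the type IV collagen chains (Col4a), the nidogens Nid1 and Nid2, perlecan (Hspg2), agrin (Agrn), dystroglycan (Dag1), and the integrin alpha and beta chains. The family was chosen on the difference between knockout and control, with Lama2 known to be among the genes that differed most, so calls and fold changes of its members are given as a description and support nothing. Counts came from sorted mouse alpha cells, the glucagon-secreting cells of the pancreatic islet. All mice were C57BL/6J by the design text and carried the alleles Gcg-iCre and Rosa26:tdTomato, with Nkx2.2+/+ in the 4 control libraries and Nkx2.2fl/fl in the 3 knockout (KO) libraries. Both groups therefore carried a Cre recombinase driven from the glucagon gene and the red reporter tdTomato, whose fluorescence was the basis of the sort. The KO cells differed in having both Nkx2.2 alleles floxed, so that Cre could remove the floxed part of the gene for this homeodomain transcription factor in cells in which the glucagon gene had been active. Age and sex, and whether each library came from 1 mouse or from pooled mice, are not given in the sources used here, so the tests measure only the spread between these libraries. One KO column carried the number 4, which matched no KO title, and is called the unnumbered KO library.

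A basement membrane is a thin sheet of extracellular matrix on which cells rest. Each laminin is a trimer of an alpha, a beta and a gamma chain, and laminins polymerise at the cell surface; type IV collagen forms a separate network, and nidogens and perlecan link the networks. Cells bind laminin through integrins, which are alpha-beta pairs, and through dystroglycan. In pancreatic islets, the basement membrane is known to be laid down largely by the capillary endothelium, and islet cells touch it through integrins.

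Library totals ranged from 45483504 to 72456557 counts, of which the members held 0.0812% to 0.0993%. Targeted Nkx2-2 was read at 8596 to 12297 normalized counts in controls and 7534 to 7758 in KO libraries, 73.2% of the control mean. Whether the counted sequence lies outside the floxed part is not given in the sources used here. Control library 4 stood apart: it had counts in 31024 genes against 23150 to 24153 in the other controls. It was also the deepest library, at 72456557 counts against 45483504 to 49112808 in the other controls. Results on members are therefore also given without it. Alpha cell markers were the most abundant list in every library, summing to 118666 to 141475 CPM (counts scaled to equal library totals) in controls and 60500 to 76442 in KO libraries, and 6 of the 9 were lower in KO (DESeq2, adjusted over all genes). Transcripts of other cell types were present: the beta cell list summed to 5668 to 10591 CPM in controls and 8957 to 15514 in KO, the delta cell list to 3765 to 6959 and 6434 to 11783, and the gamma cell list to 3430 to 7003 and 11464 to 16144. The acinar list was uneven within groups, at 3.56 to 209 CPM in controls, highest in control 3, and 20.1 to 117 in KO. In the delta cell list, DESeq2 called Rbp4 (log2 fold change 1.55) and Ffar4 (0.49) higher, and edgeR called neither. Sst at 0.64, Hhex at 0.59 and Ghsr at 0.78 were not called. In the gamma cell list the hormone gene Ppy was the called gene (log2 fold change 1.51), while Aqp4 at 0.05 and Sertm1 at -0.13 were not called. The part of these shifts in the values of the members was not tested. In libraries of sorted cell pools, a change in the mix of cells and a change in RNA per cell cannot be told apart.

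The promoter windows of the 5 members whose counts differed past the threshold are shown because NK2-class homeodomain proteins are known to bind a core of AAGTG. The windows are the 250 bases before the RefSeq start on GRCm38.p6, the assembly also named mm10, and RefSeq windows were found for 31 of the 47 members. They lie at chr10:27616943-27617192 (minus strand) for Lama2, chr13:13437352-13437601 (plus strand) for Nid1, chr13:115101965-115102214 (minus strand) for Itga1, chr12:119238277-119238526 (minus strand) for Itgb8 and chrX:141475169-141475418 (plus strand) for Col4a5. RefSeq and GENCODE starts differ. By GENCODE the windows of Lama2 and Itgb8 lie inside the gene, whose ends are at chr10:27619758 and chr12:119238802. Those of Nid1 and Col4a5 run past the GENCODE start into the gene. Capitals mark AAGTG or its reverse complement CACTT, and sequences read 5′ to 3′ on the strand of the gene.
Lama2: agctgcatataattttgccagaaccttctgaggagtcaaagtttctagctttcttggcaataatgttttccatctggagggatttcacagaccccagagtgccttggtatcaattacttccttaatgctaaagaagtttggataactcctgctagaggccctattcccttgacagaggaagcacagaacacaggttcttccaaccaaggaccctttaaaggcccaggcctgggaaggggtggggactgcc
Nid1: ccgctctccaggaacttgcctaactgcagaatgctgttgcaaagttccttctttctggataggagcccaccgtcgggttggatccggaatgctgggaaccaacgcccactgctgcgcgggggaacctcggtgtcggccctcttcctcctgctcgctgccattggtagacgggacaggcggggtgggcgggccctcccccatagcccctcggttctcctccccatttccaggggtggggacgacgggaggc
Itga1: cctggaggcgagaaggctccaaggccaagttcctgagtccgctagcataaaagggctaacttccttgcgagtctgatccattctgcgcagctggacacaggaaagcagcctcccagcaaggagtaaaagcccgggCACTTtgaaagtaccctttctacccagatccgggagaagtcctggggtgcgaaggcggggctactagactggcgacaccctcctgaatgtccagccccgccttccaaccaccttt
Itgb8: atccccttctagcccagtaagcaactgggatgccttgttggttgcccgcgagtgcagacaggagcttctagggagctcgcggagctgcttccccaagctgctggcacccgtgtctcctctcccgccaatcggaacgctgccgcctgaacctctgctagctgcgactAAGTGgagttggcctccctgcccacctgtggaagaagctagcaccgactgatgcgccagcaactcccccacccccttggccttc
Col4a5: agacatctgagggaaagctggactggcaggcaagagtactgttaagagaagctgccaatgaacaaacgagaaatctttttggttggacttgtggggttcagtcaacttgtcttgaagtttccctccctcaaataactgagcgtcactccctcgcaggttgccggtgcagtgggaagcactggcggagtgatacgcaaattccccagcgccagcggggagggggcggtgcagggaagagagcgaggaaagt

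The core AAGTG, searched on both strands, was found once in the windows of Itga1 and Itgb8 and was not in those of Lama2, Nid1 and Col4a5. Across the family it was in the windows of 14 of 31 genes (45.2%), beside 40.7% of 32851 RefSeq promoter windows. These shares were counted in unlike ways. A member gene counted if any of its windows matched, with 36 windows for the 31 genes, whereas the share over all promoters is per single window. The longer motif TNAAGTG, which contains the core, was in the windows of 0 of the 31 genes and in 10.1% of all windows. A match of letters is not a binding site, and its absence from these windows says nothing about the factor. The windows differed in composition: that of Lama2 was 47.2% G and C with 0 CpG, and that of Nid1 was 64.4% with 16 CpG, where the median of all windows was 52.4%.

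In control alpha cells the family was dominated by receptors. Levels are given as normalized counts per kilobase of exon. Itgb1, the beta chain shared by most laminin- and collagen-binding integrins, had the highest level at 3021 ± 471 (SD, n = 4), followed by Dag1 at 1214 ± 142. Next came Itga3, the alpha chain of a laminin-binding integrin, at 558 ± 76.0, Lamc1, the common laminin gamma chain, at 548 ± 59.4, and Itgav, the alpha chain of RGD-binding integrins, at 537 ± 58.7. The control ranges of these 3 overlapped, whereas those of Itgb1 and Dag1 were separate from each other and from the rest. Itgb5 followed at 364 ± 44.3 and Nid1 at 226 ± 48.7, beside Col4a1 at 219 ± 49.5. Lama5 stood at 130 ± 26.9 and Lama2 at 95.9 ± 15.8. In all, 11 members had a control mean of at least 100, 14 lay between 10 and 100, and 22 were under 10.

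**Figure D1:**
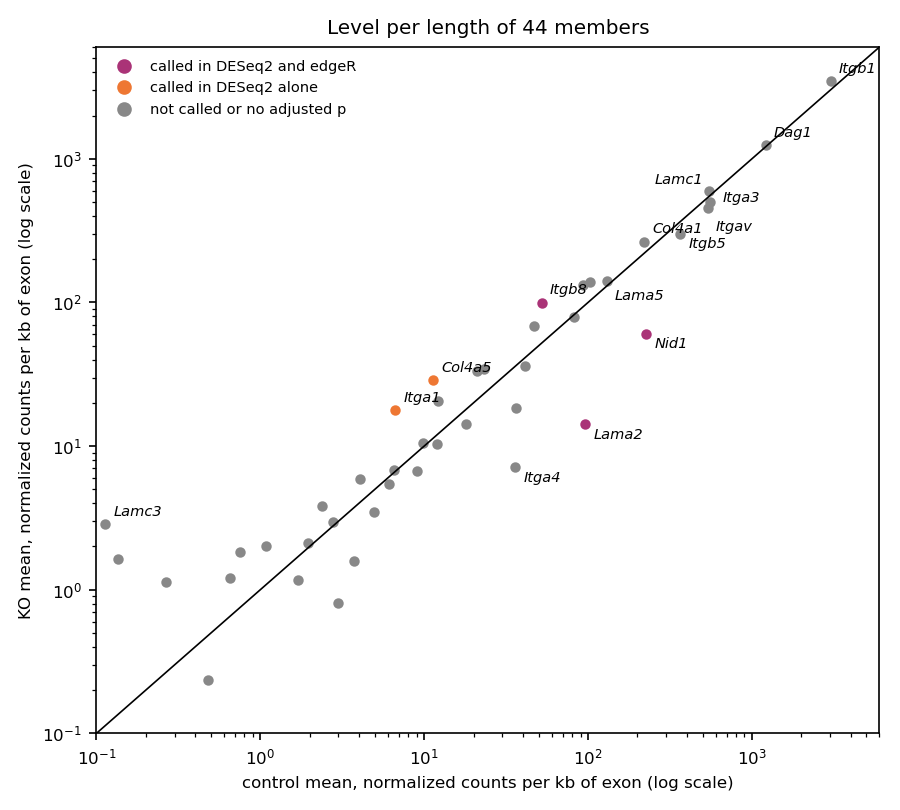
Mean level of 44 members in control (horizontal axis, n = 4) and KO libraries (vertical axis, n = 3), in normalized counts per kilobase of exon on log scales, with the line of equal level. Nid1 and Lama2 lie below the line among the moderately expressed members, while Itgb1, Dag1 and Lamc1 lie close to it; Itgad and Itgam, with a KO mean of 0, are not drawn.

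Of the 47 members, 32 had counts that allowed an adjusted p in DESeq2, and 5 of these were called at an adjusted p under 0.05. Lama2 and Nid1 were lower in KO libraries, and Itga1, Itgb8 and Col4a5 were higher. Across all 17571 genes with an adjusted p, 4.51% were called, 2.27% lower and 2.24% higher; the members' share of 15.6% was fixed in part by how they were chosen. In edgeR's quasi-likelihood test, 3 of 36 members tested were called (Lama2, Nid1 and Itgb8), where 1.05% of all genes were. The median log2 fold change over the 32 members was 0.10, beside 0.0098 over all genes, with 19 members above 0 and 13 below. For 7 of the 32, the 5 above with Itga6 and Lamb2, no KO value fell within the control range, beside 12% of all genes whose groups did not overlap.

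**Figure D2:**
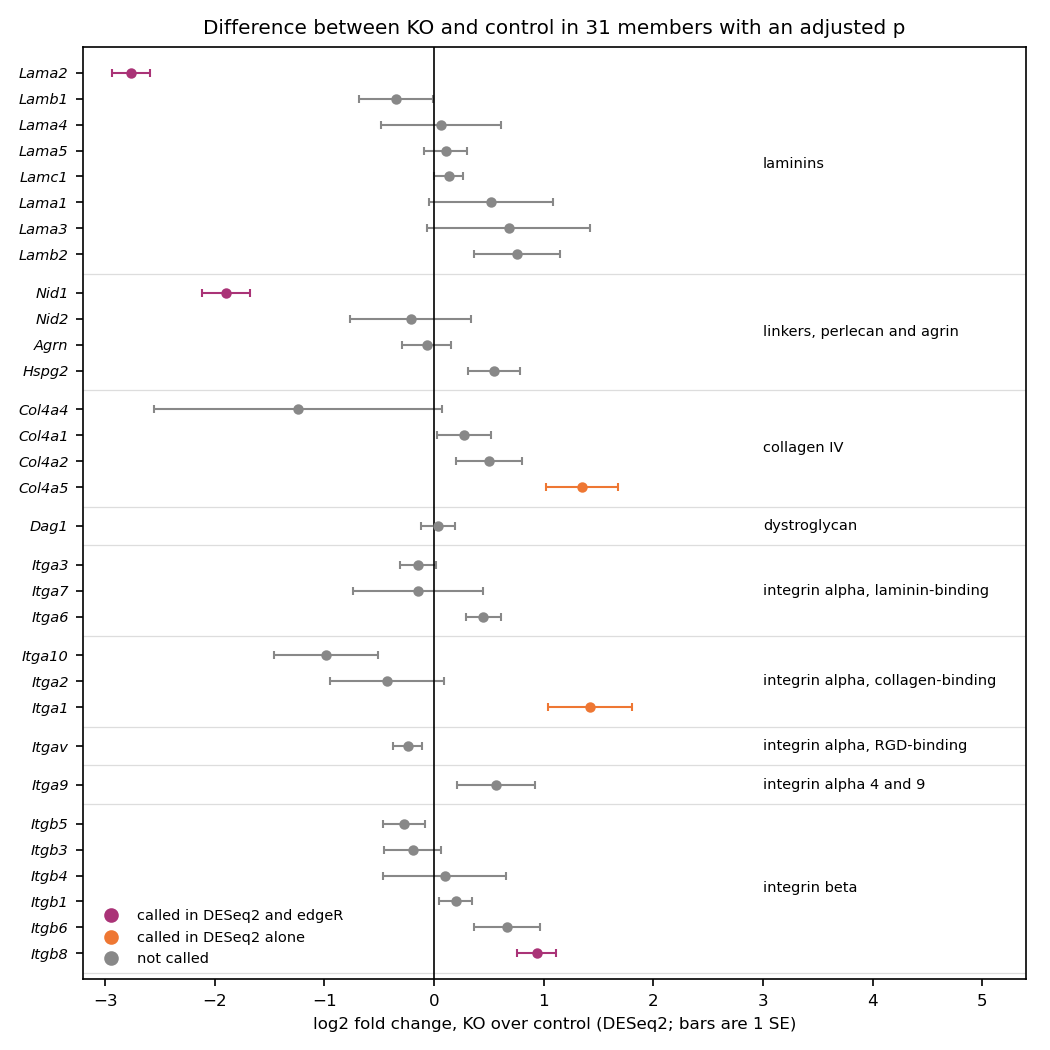
Log2 fold change of KO over control from DESeq2 (horizontal axis; bars are 1 SE) for 31 of the 32 members with an adjusted p, grouped by role. Lama2 at -2.76 and Nid1 at -1.90 are apart on the lower side, while Itga1 at 1.42, Col4a5 at 1.35 and Itgb8 at 0.94 are the called members on the higher side.

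Among the laminins, Lama2 alone was called of the 9 chains with an adjusted p. Lama2 encodes the laminin alpha 2 chain, known from muscle and peripheral nerve, where its loss causes a congenital muscular dystrophy. The gene lies at chr10:26980036-27619758 on the minus strand (mm10). Its normalized counts were 1292, 1511, 1552 and 1914 in the controls while KO 1 had 243, KO 2 had 238 and the unnumbered library 215. KO values are given in this order throughout. Every KO library was far below every control, and the KO mean was 14.8% of the control mean, a log2 fold change of -2.76 (SE 0.17). Without control 4 it was -2.65 (SE 0.16).

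The other alpha chains were not called. Lama5, found in many mature epithelial and vascular basement membranes, had 1280, 1316, 1391 and 1935 normalized counts in controls and 1356, 1477 and 1958 in KO libraries. These ranges overlapped almost fully, and the log2 fold change of 0.11 had a 95% interval of -0.28 to 0.49. Lama1, typical of embryonic basement membranes, had 45.4, 18.9, 31.4 and 62.2 in controls and 46.9, 43.4 and 80.0 in KO. Lama4, a chain of vascular basement membranes, had 72.6, 80.2, 133 and 28.9 in controls and 58.7, 122 and 65.2 in KO. Lama3, a chain of epithelial laminins, had 13.6, 40.1, 13.1 and 35.4 in controls and 19.6, 77.5 and 26.7 in KO, KO 2 being the highest. Both groups overlapped for each of these low chains.

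The make-up of the alpha chain transcripts followed from these values. Per length, Lama2 held 40.2% ± 1.45 of the laminin alpha transcript level in controls (SD, n = 4) and 8.50% ± 1.85 in KO libraries (SD, n = 3). Lama5 held 54.2% ± 2.14 and 81.8% ± 3.66. The summed alpha chain level was 239 ± 41.9 normalized counts per kilobase in controls and 171 ± 28.2 in KO, so the larger share of Lama5 came with no called change of its own counts. Shares within a library do not depend on library scaling.

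**Figure D3:**
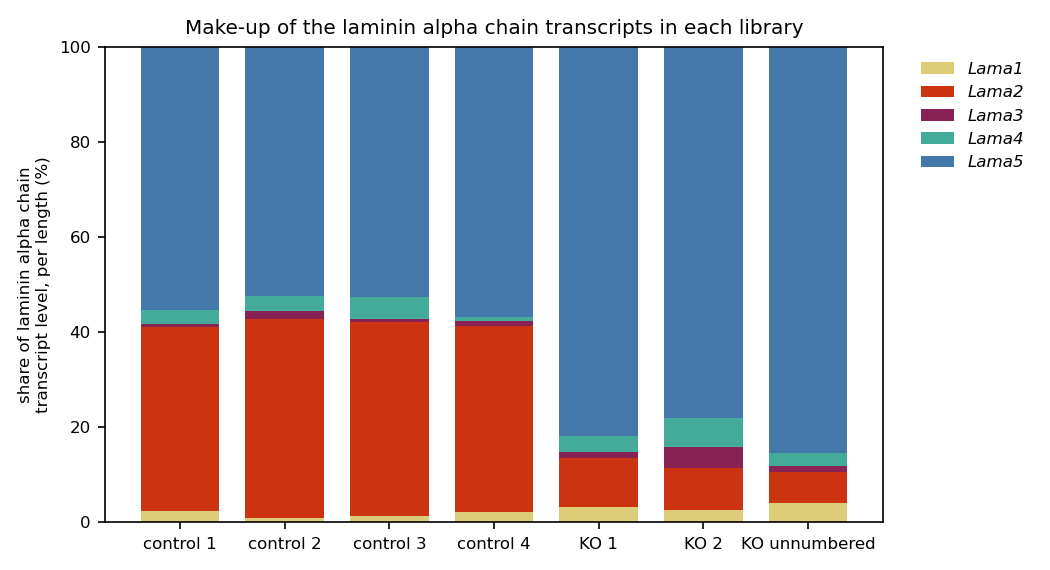
Share of the summed laminin alpha chain level (vertical axis, percent, per length) held by each of the 5 chains in each of the 7 libraries. Lama2 takes 38.9% to 42.0% in the 4 controls and 6.53% to 10.2% in the 3 KO libraries, and Lama5 takes most of the rest.

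The chains with which laminin alpha 2 assembles were not called. Lamc1 had 4358, 5250, 4399 and 4132 normalized counts in controls and 5126, 5415 and 4369 in KO, for a log2 fold change of 0.13 (95% interval -0.12 to 0.38). Lamb1, the beta chain of laminin-211, had 155, 116, 220 and 226 in controls and 160, 157 and 107 in KO, with overlapping groups. Lamb2, the beta chain of laminin-221, had 65.8, 75.5, 77.1 and 78.1 in controls and 110, 188 and 80.0 in KO. All 3 KO values of Lamb2 were above the controls, that of the unnumbered KO library by little, and the log2 fold change was 0.76 (95% interval -0.01 to 1.53).

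Lamc3, another gamma chain, was almost unread in controls, with 3 counts over the 4 libraries, and had 61 counts over the 3 KO libraries. The ratio after scaling was 23.6. Its 95% interval of 7.70 to 118 takes each count as independent, which these counts were not, so it is too narrow even for counting error. DESeq2 gave Lamc3 a p but no adjusted p, as its mean count was below the cutoff for adjustment. Lamc3 was called in 1 fit, run with the filter on outlying counts (Cook's distance) off. The cutoff on the mean count was also lower in that fit, with 23583 genes given an adjusted p against 17571. The level of Lamc3 stayed low, at most 25.2 normalized counts in a library.

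Nid1, nidogen-1, bridges laminin gamma 1 and type IV collagen. The gene lies at chr13:13437551-13512269 on the plus strand. Its normalized counts were 1384, 1205, 1960 and 1722 in controls and 516, 423 and 326 in KO libraries. The highest KO library was below the lowest control, and the KO mean was 26.9% of the control mean, a log2 fold change of -1.90 (SE 0.22) and of -1.85 (SE 0.21) without control 4. Its paralogue Nid2 ranged from 34.7 to 105 in controls and 35.6 to 82.6 in KO. The summed nidogen level per kilobase was 238 ± 52.1 in controls and 71.0 ± 15.1 in KO, and the share of Nid1 in it was 93.3% to 97.4% in controls and 79.2% to 90.4% in KO.

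The heparan sulfate proteoglycans of the basement membrane were not called. Hspg2, perlecan, had 574, 519, 894 and 683 normalized counts in controls and 884, 1247 and 794 in KO libraries, with control 3 inside the KO range. Agrn, agrin, which also binds dystroglycan, ranged from 673 to 1007 in controls and 568 to 906 in KO. Log2 fold changes were 0.55 (SE 0.24) for Hspg2 and -0.06 (SE 0.22) for Agrn.

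Among the type IV collagens, Col4a5 was called, at a low level. It encodes the alpha 5 chain, which with the alpha 3 and alpha 4 chains forms the collagen network of the kidney glomerulus and is mutated in Alport syndrome. The gene lies at chrX:141475385-141689234 on the plus strand. Normalized counts were 74.9, 84.9, 64.1 and 80.9 in controls and 135, 200 and 247 in KO libraries, so the groups were separate, with KO 1 the nearest to the controls. The log2 fold change was 1.35 (SE 0.33), and 1.38 (SE 0.34) without control 4. The call was lost when KO 2 or the unnumbered library was left out, and edgeR did not make it. It was also lost in the 4 libraries numbered 1 and 2 (1.04 with and 1.07 without a replicate block).

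Col4a1, a chain of the common collagen IV network and the most abundant collagen IV transcript, had 1101, 1688, 1817 and 1931 normalized counts in controls and 1954, 2619 and 1357 in KO libraries. Its partner Col4a2 had 370, 761, 782 and 541 in controls and 648, 1239 and 723 in KO. For both genes control 1 was the lowest library and KO 2 the highest, and the groups overlapped. KO 2 was also highest in the endothelial marker list, at 25.7 CPM against 8.78 to 14.0 in controls and 9.96 and 16.7 in the other KO libraries. The mesenchymal, stellate and pericyte list summed to 25.7 to 68.3 in controls and 48.3 to 77.7 in KO, KO 2 again the highest, as it was for Hspg2 and Lamb2. The part of these cells in the collagen, perlecan and Lamb2 values was not tested. Neither list had a marker at 0 in every library or a called gene. Col4a3, Col4a4 and Col4a6 had at most 129 normalized counts in any library, the highest being Col4a4 in control 4.

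Dag1 encodes dystroglycan, the receptor that binds laminin alpha chains through its sugar chains and connects them to dystrophin. Its normalized counts were 8033, 8263, 8202 and 6367 in controls and 8228, 9157 and 6367 in KO libraries. Control 4 and the unnumbered KO library were low alike, and the log2 fold change was 0.04 (95% interval -0.26 to 0.34). No call was made for this receptor while its ligand chain Lama2 was lower.

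The laminin-binding integrin alpha chains were not called. Itga3 had 2967, 3521, 3578 and 2686 normalized counts in controls and 2852, 3401 and 2381 in KO, with overlapping groups and a log2 fold change of -0.15 (95% interval -0.46 to 0.17). Itga6, whose product pairs with beta 1 or beta 4, had 904, 1080, 928 and 773 in controls and 1267, 1359 and 1149 in KO. Its groups were separate, at a log2 fold change of 0.45 (SE 0.16), and it was the member just outside the threshold. The next outside were Hspg2 at 0.55, Itgb6 at 0.67 and Itga10 at -0.98, and those just inside were Itga1 at 1.42 and Col4a5 at 1.35. Itga7, the main laminin receptor chain of muscle, was low, at 40.8, 35.4, 91.5 and 28.9 in controls and 43.0, 26.9 and 62.2 in KO.

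Itga1 was called among the collagen-binding alpha chains; with beta 1 it forms a receptor for collagens, type IV included, and for laminin. The gene lies at chr13:114953096-115101964 on the minus strand. Normalized counts were 65.8, 180, 159 and 91.1 in controls and 401, 359 and 236 in KO libraries. The groups were separate, though the controls spread over more than their lowest value, and the log2 fold change was 1.42 (SE 0.38) and 1.30 (SE 0.34) without control 4. The call was lost without KO 1 and without KO 2, and edgeR did not make it. Pelo, a gene on the same strand inside Itga1, had a log2 fold change of 0.54 and was not called, and 3.68% of the exon length of Itga1 is shared with genes of its strand. Itga2, the related collagen receptor chain whose gene is its nearest read neighbour on one side, ranged from 30.6 to 96.7 in controls and 35.1 to 60.6 in KO. Itga10, the collagen-binding chain with the highest level per length, had 216, 104, 187 and 246 in controls and 105, 36.1 and 144 in KO, with overlap. Of the exon length of Itga10, 33.5% is shared with Gm42957 on the same strand, which bears on its level per length. Itga11 was at or under 12.4 except for 59.3 in control 4.

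Itgav, of the RGD-binding chains, had 5655, 4924, 6214 and 6289 normalized counts in controls and 5010, 5353 and 4291 in KO, with overlap and a log2 fold change of -0.24 (95% interval -0.50 to 0.02). Itga5 and Itga8, the other chains of this class, were at most 22.7 in any library. Per length, Itga3 held 42.2% and Itgav 40.5% of the integrin alpha level in controls, and 41.9% and 38.0% in KO. Itga4, whose product binds VCAM-1 and fibronectin, was at 93.2 to 122 in controls 1 to 3 and at 1706 in control 4, against 84.5 to 115 in KO; it received no adjusted p, and its log2 fold change was -2.34 with control 4 and -0.05 without it. Itga9, whose product binds tenascin and osteopontin, ranged from 119 to 244 in controls and 176 to 337 in KO. The 5 leukocyte integrin alpha chains (Itgad, Itgae, Itgal, Itgam and Itgax) had at most 30.7 normalized counts in any library, that of Itgae in control 2, and no adjusted p. The leukocyte marker list summed to 16.2 to 25.3 CPM in controls and 14.6 to 15.4 in KO. Its called gene was C1qa, at a log2 fold change of -0.82 (DESeq2 adjusted p = 0.0113, edgeR adjusted p = 0.140). C1qa was the highest of the list in every library, at 808 to 1305 normalized counts in controls and 415 to 655 in KO. Cd68, Csf1r and Laptm5 were not called. Ptprc, Adgre1, C1qb, C1qc, Lyz2 and Cd52 had at most 48.9 normalized counts in a library and no DESeq2 adjusted p. Of the 9 markers besides C1qa, 8 had a fold change above 0. Itgam had at most 2 counts in a library, which is within the limit of 3 counts that a count of 0 allows. Of its exon length, 68.7% is shared with Gm49368 on the same strand, and how reads in shared exons were counted is not given.

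Itgb8 was called among the beta chains. With alpha v it forms an integrin that binds latent TGF-beta and takes part in its activation. The gene lies at chr12:119158022-119238802 on the minus strand. Normalized counts were 702, 572, 489 and 538 in controls and 1186, 951 and 1163 in KO libraries. The groups were well separate, and the KO mean was 1.91 times the control mean, a log2 fold change of 0.94 (SE 0.18) and 0.90 (SE 0.18) without control 4. Itgb8 held 1.51% of the integrin beta level per length in controls and 2.57% in KO.

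Itgb1 had 12221, 14010, 13415 and 9673 normalized counts in controls and 14569, 15779 and 12056 in KO, with overlap and a log2 fold change of 0.20 (95% interval -0.10 to 0.50). It held 85.8% of the integrin beta level in controls and 87.7% in KO. Itgb5, another partner of alpha v, ranged from 1112 to 1463 in controls and 835 to 1334 in KO. Itgb6, also an alpha v partner in TGF-beta activation, ranged from 108 to 197 and 192 to 268, so that its groups met at their edges. Itgb3 ranged from 215 to 295 and 162 to 253, and Itgb4, the partner of alpha 6 in hemidesmosomes, from 44.8 to 118 and 30.4 to 114. Itgb2 and Itgb7, the leukocyte beta chains, were under 15 except for Itgb7 at 37.6 in control 4.

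**Figure D4:**
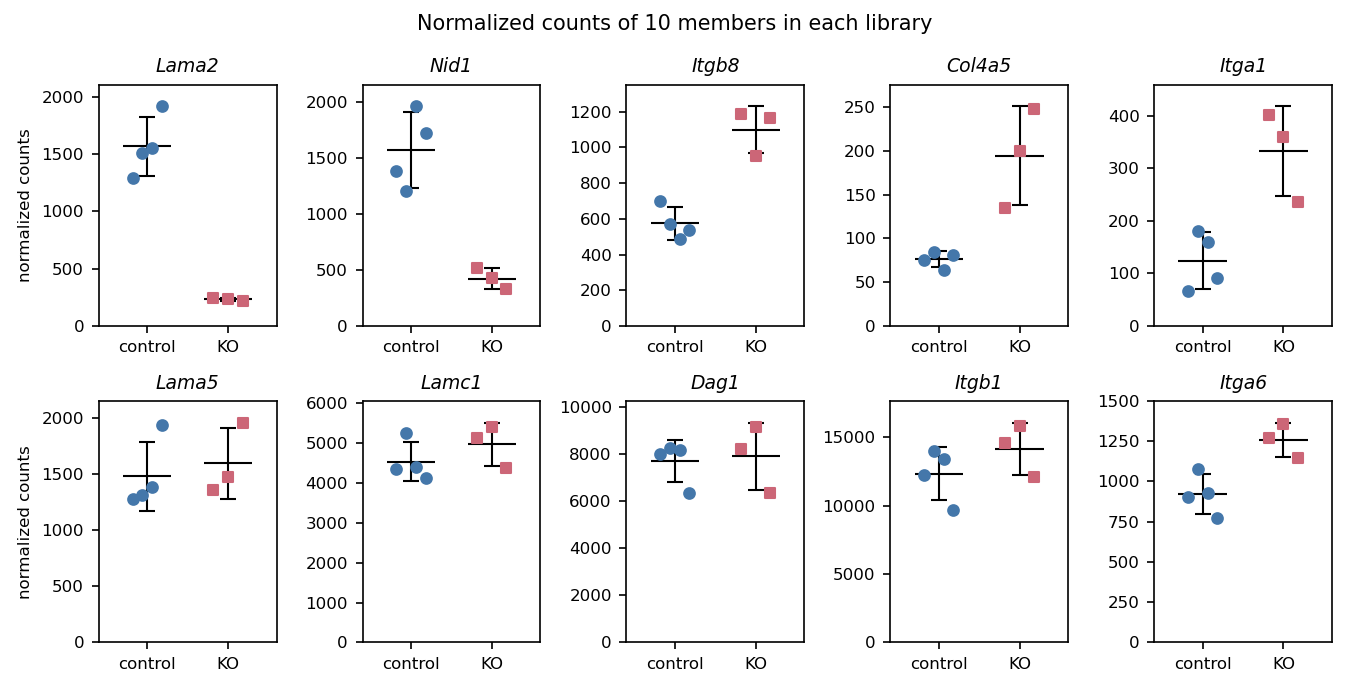
Normalized counts (vertical axes, from 0) of 10 members in the 4 control (circles) and 3 KO libraries (squares), with the mean and SD as lines. The 5 called members in the upper row have separate groups, as has Itga6, while Lama5, Lamc1, Dag1 and Itgb1 overlap between groups.

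The calls differed in how far they held when the fit was varied. Lama2, Nid1 and Itgb8 were called in all 19 fits run, those without 1 library and those with edgeR included. Without each library in turn, the log2 fold change of Lama2 stayed between -2.84 and -2.65, that of Nid1 between -2.07 and -1.74, and that of Itgb8 between 0.86 and 1.04. Itga1 was called in 15 of the 19 fits and Col4a5 in 13, and Itga6 in 3.

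**Figure D5:**
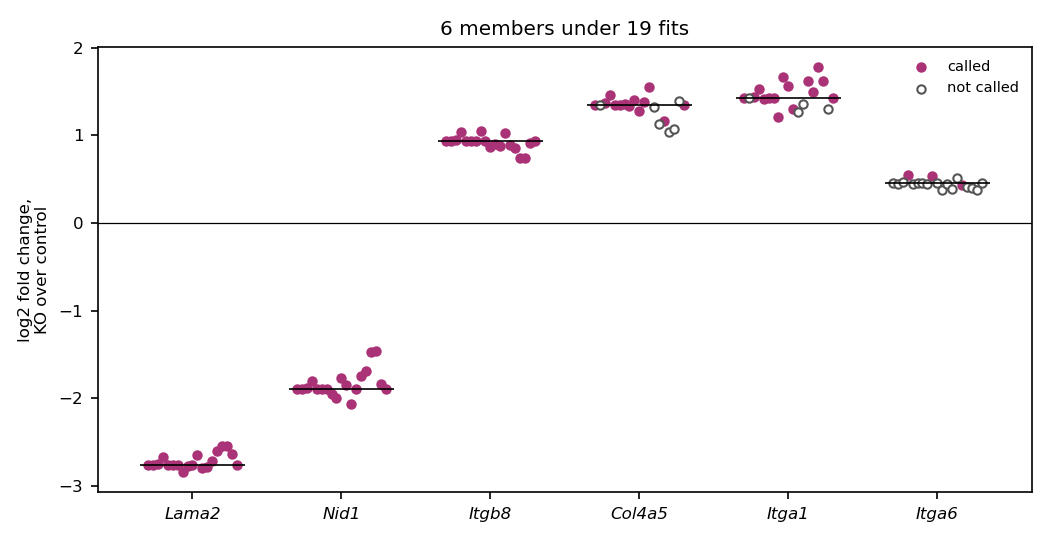
Log2 fold change (vertical axis) of 6 members under 19 fits, with called fits filled and others open and the line at the fit given in the text. Lama2, Nid1 and Itgb8 are filled throughout; Col4a5 and Itga1 keep their sign and lose the call in some fits.

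Around the members, 7 lists held other genes of laminin binding and basement membrane biology, 138 genes found, of which 123 had an adjusted p. DESeq2 called 6 higher and 6 lower, where 4.51% of all genes were called, and edgeR called 3. On the intracellular side of dystroglycan, Sntb2, a syntrophin, was 1 of 14 genes of the dystrophin-glycoprotein complex called, at a log2 fold change of -0.50 (SE 0.16; DESeq2 adjusted p = 0.0337, edgeR adjusted p = 0.152). Of 16 genes for the sugar chains of dystroglycan, 1 was called, Pomt2, an O-mannosyltransferase, at -0.36 (SE 0.11; DESeq2 adjusted p = 0.0357, edgeR adjusted p = 0.143). Pikachurin (Egflam), a secreted ligand of dystroglycan, had 1178, 728, 2083 and 1077 normalized counts in controls and 287, 452 and 319 in KO. All its KO values were below the controls, and its log2 fold change was -1.85 (SE 0.31; DESeq2 adjusted p = 7.45e-07, edgeR adjusted p = 0.0440).

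Of 26 integrin adaptors and kinases, 2 were called, both lower, where 2.27% of all genes were called lower; the median log2 fold change of the list was 0.08. Ptk2b, the kinase Pyk2, had 5558, 6473, 5147 and 6144 normalized counts in controls and 3918, 3964 and 3838 in KO, a log2 fold change of -0.58 (DESeq2 adjusted p = 2.21e-05, edgeR adjusted p = 0.0346). Tns3, a tensin that ties integrins to actin, was at -0.63 (DESeq2 adjusted p = 0.000724, edgeR adjusted p = 0.0853). Among 19 other integrin ligands, Edil3, an RGD protein that binds alpha v integrins, fell, from 165 to 243 normalized counts in controls to 62.0 to 82.1 in KO (log2 fold change -1.50, DESeq2 adjusted p = 3.23e-05, edgeR adjusted p = 0.0477). Its paralogue Mfge8 rose, from 117 to 436 in controls to 643 to 1149 in KO (log2 fold change 1.82, DESeq2 adjusted p = 0.000487, edgeR adjusted p = 0.104). Spp1, osteopontin, was at 0.65 (DESeq2 adjusted p = 0.0246, edgeR adjusted p = 0.147).

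Of 17 other basement membrane proteins, Npnt, nephronectin, a ligand of alpha 8 integrin, was called higher at 0.69 (DESeq2 adjusted p = 0.00166) and Pxdn, peroxidasin, which crosslinks collagen IV, at 0.56 (DESeq2 adjusted p = 0.00350); Egflam was the called gene on the lower side. Of 14 other matrix receptors, Cd44, which binds hyaluronan, was called at 0.88 (DESeq2 adjusted p = 0.0152). Of 17 genes of collagen synthesis and matrix turnover, the protease gene Adamts1 was called at 1.47 (DESeq2 adjusted p = 0.000232). Npnt, Pxdn, Cd44 and Adamts1 were not called in edgeR, with adjusted p of 0.0696, 0.0767, 0.183 and 0.0568.

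Neighbouring genes were read beside the called members. Gpr137b, 43.5 kb before Nid1, had a control mean of 1511 and a KO mean of 382 normalized counts, for a log2 fold change of -1.98 (SE 0.20; DESeq2 adjusted p = 4.07e-19, edgeR adjusted p = 0.00587), close in size to that of Nid1. Lyst, on the other side of Nid1, was at -0.24 and not called. Ptprk, 455 kb beyond Lama2, was called at -0.44 (SE 0.09; DESeq2 adjusted p = 8.60e-05, edgeR adjusted p = 0.0452), and Arhgap18, 61.4 kb on the other side, was at 0.02. Neither neighbour of Itgb8 was called, and Irs4, 21.8 kb after Col4a5, was at 3.11 (SE 1.21) and not called. On the far side of Itga1 from Itga2 lay Isl1, a gene of an islet transcription factor, 1196 kb away. Isl1 was called higher at 0.44 (SE 0.13, DESeq2 adjusted p = 0.0225, edgeR adjusted p = 0.169). Neighbours are the nearest genes on either side that had an adjusted p.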

How the data were processed

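Sorted alpha cells were profiled by RNA sequencing (Qiagen RNeasy Micro and Takara SMARTer Stranded Total RNA-Seq v2 Pico kits, per the labels' protocols); the labels call the libraries both ribosomal RNA depleted and polyA RNA, and which holds was not settled here. The deposited values are whole-number counts per gene. The submitters' processing notes name FastQC, STAR, featureCounts, DESeq2 and the build mm10; counting settings, strand use included, are not given in the sources used here. Of counts from 1 to 10, 84.4% to 88.9% were even, so single counts are not independent molecules. The interval of the Lamc3 ratio takes them as independent and is therefore too narrow even for counting error.

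The 4 control and 3 KO libraries were compared in R 4.3.3 with DESeq2 1.42.0 (Wald test, genes with at least 1 count, no covariate, Benjamini-Hochberg adjustment over all genes, threshold 0.05), as the series' design text names that tool, with edgeR 4.0.16 (quasi-likelihood, TMM) beside it. Both were tested on simulated data. Normalized counts are counts divided by DESeq2 size factors. Levels per length use GENCODE M21 merged exons; they replace the planned TPM because the single small RNA gene Gm23935 took 84.7% to 87.9% of TPM. Replicate libraries differed by more than sampling noise. Alternatives were other scalings, filters, leaving out libraries and a replicate block. Values in every library are given for called members, usual partners and receptors of laminin alpha 2, and the highest member of each role, except the barely read leukocyte chains and Itga4, given by range; other lists' genes are named when called. Members, lists and tests were chosen with earlier results of these data known. Protein sequences were not used here, and the values of 1 member are not reported here.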

Additional observations from a re-analysis of the deposited data

Results flagged for a closer look

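In 5 of 56 results examined over the 4 controls, 1 library lay far from the other 3, where chance gives about 2.8. Itga4 was at 1706 normalized counts in control 4 against 93.2 to 122 in the others. Cerkl, on the opposite strand with its exons overlapping 8.04% of those of Itga4, was at 1816 in control 4 and 1516 to 1822 in the other controls. Lama5 was highest in control 4 at 1935 against 1280 to 1391, and Dag1 lowest there at 6367 against 8033 to 8263. Agrn was highest in control 3 at 1007 against 673 to 689. The gamma cell marker list was highest in control 2 at 7003 CPM against 3430 to 3916.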

How the results depend on the processing

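Over 34 members and 18 alternatives (15 planned and 3 chosen after seeing the data), 609 fold changes were recomputed: 550 kept their sign and side of the threshold, 10 kept the sign and lost the call, 10 kept it and gained one, and 39, in 13 members, changed sign, 0 of them with a call in either fit. For the changes of call and sign the cause was not tested. Of the 15 members without an adjusted p, most were low in counts. With the Cook's distance filter on outlying counts off, 44 members had one and Lamc3 was called. The cutoff on the mean count was also lower in that fit, so these changes do not come from the Cook's distance filter alone.

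Members called numbered 5 in the fit given, 3 with edgeR, 3 with edgeR without control 4, and 3 to 6 when leaving out each library (3 without KO 2). Genes called numbered 792, 203 with edgeR, 249 with edgeR without control 4, and 430 to 910 when leaving out each library (430 without KO 1). Scaling by library totals shifted the median of all genes from 0.01 to 0.11.

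The replicate block used numbers 1 and 2, and nothing in the labels makes libraries of the same number pairs. Deviations correlated at 0.121 and 0.196 for these numbers. The columns of the unnumbered KO library and of control 4 both carried the number 4. Deviations of these libraries correlated at 0.377, the highest value for any control with a KO library, and the block left them out. Whether they shared a processing step was not tested. The remaining values were -0.321 to 0.282. With a replicate block over the 4 libraries numbered 1 and 2, 8 members were called and the median was 0.2250. In the same libraries with no replicate block it was 0.2317 with 6 members called, the fewer libraries alone moving it from 0.10. Genes called were 580 and 622.

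Sign changes among uncalled members were as follows, as log2 fold changes. With the replicate block and then the same libraries without it, Agrn (-0.06 in the fit given) was 0.24 and 0.25, Col4a4 (-1.24) 2.12 and 0.57, Itga2 (-0.43) 0.21 and 0.21, Itga4 (-2.34) 0.18 and 0.19, Itgb3 (-0.20) 0.12 and 0.13, Lamb1 (-0.34) 0.24 and 0.23, and Nid2 (-0.21) 0.12 and 0.20. Without the 2 deepest libraries, Agrn was 0.038, Col4a4 1.01, Itga4 0.051 and Lama4 (0.06) -0.081. With library totals, Agrn was 0.032 and Itga7 (-0.15) 0.0036. With edgeR without control 4, Col4a4 was 0.80, Dag1 (0.04) -0.039 and Lama4 -0.22. Leaving out each library, the ranges were -0.25 to 0.094 for Agrn (above 0 without control 3 or the unnumbered KO), -1.75 to 0.81 for Col4a4 (above 0 without control 4), -0.082 to 0.17 for Dag1 (below 0 without control 4 or KO 2), -0.49 to 0.34 for Itga7 (above 0 without control 3 or KO 2), -0.37 to 0.48 for Itgb4 (below 0 without controls 1 or 2 or KO 1), -0.15 to 1.02 for Lama3 (below 0 without KO 2), -0.34 to 0.44 for Lama4 (below 0 without control 4 or KO 2), -0.068 to 0.27 for Lama5 (below 0 without the unnumbered KO), and -0.68 to 0.16 for Nid2 (above 0 without control 3 or the unnumbered KO).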
